A study of Mus musculus with 6 samples.

Results

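The nuclear genome encodes most of the proteins of the mitochondrial respiratory chain. Electrons enter at complex I (NADH dehydrogenase) and complex II (succinate dehydrogenase), pass through complex III (the cytochrome bc1 complex) to complex IV (cytochrome c oxidase), and the proton gradient that results drives ATP synthesis at complex V. A few core subunits of complexes I, III, IV and V come from mitochondrial DNA and are assembled with the nuclear-encoded ones, whereas complex II is encoded in the nucleus alone. T cells depend on this chain when they leave quiescence and during effector growth.

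The genes described here are the nuclear-encoded subunits, chosen by their symbols alone: those beginning Nduf followed by a, b, c, s or v and a number, the 4 *Sdh* genes, and those beginning Uqcr, Cox4 to Cox8 or Atp5, without names containing -ps. They came to 84 of the 34745 genes in the deposited tables, with 37 in complex I, 4 in complex II, 8 in complex III, 18 in complex IV and 17 in complex V. The grouping follows the names, and a few names sit uneasily with it. *Ndufa4* is counted with complex I although its protein is found in complex IV, *Cox7a2l* encodes a factor that joins complexes into supercomplexes, and *Atp5s* and *Atp5sl* do not encode structural subunits of the ATP synthase.

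RNA was sequenced from CD8+ effector T cells (Teff) of WT and *Scd-1*-/- mice, with 3 libraries each. *Scd-1* encodes stearoyl-CoA desaturase 1, which makes monounsaturated from saturated fatty acids. The knockout is the strain B6.129-Scd1tm1Ntam/J, deleted in every cell of the animal, and the WT mice were purchased C57BL/6J animals, so the groups were not littermates. The mice were males of 6 to 8 weeks, and splenic CD8+ T cells of both genotypes were cultured for 6 days: a 3-day stimulation (anti-CD3, 5 μg/mL; anti-CD28, 0.5 μg/mL; IL-2, 100 U/mL) preceded 3 days with IL-2 alone. Nothing in the labels says which animals or cultures the replicate numbers stand for, so p-values measure the spread between these libraries, which may be partly technical.

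The libraries held 14034479 to 15866216 counts, so that the floor of 3 counts for a gene without reads stood at 0.189 to 0.214 CPM (counts per 1000000 of the library), for counting error alone. *Scd1* had 3074 to 4272 counts in WT and 20 to 36 in *Scd-1*-/- libraries. All 6 CD8 T cell markers examined were expressed, with *Cd8a* at 43.2 to 47.6 FPKM in WT and 27.9 to 36.6 in *Scd-1*-/- libraries (edgeR adjusted p of 0.297, and 0.0166 with replicates 2 and 3 alone). *Cd8b1* had a log2 fold change (*Scd-1*-/- over WT) of -0.30 (edgeR adjusted p of 0.647, and 0.0382 with replicates 2 and 3 alone). Those of *Cd3e*, *Cd3d*, *Cd3g* and *Trac* were 0.00, -0.03, -0.01 and -0.04. Replicate 1 of both genotypes stood apart from replicates 2 and 3 along the first principal component (42.9% of the variance), and for the members, calls and medians with replicates 2 and 3 alone are also given. Markers of other cells differed in either direction. Of the B cell markers, *Ms4a1* was at 0 throughout and *Cd79b* had 9.41 to 10.7 FPKM in WT and 3.13 to 7.90 in *Scd-1*-/- libraries (edgeR adjusted p of 0.387, and 0.0434 with the replicate number as a block). Of the natural killer receptor genes, *Klrb1c* had 0.501 to 0.938 and 1.66 to 9.39 FPKM (edgeR adjusted p of 0.121, and 0.00591 with the block), and *Ncr1* had 0 to 5 and 0 to 2 counts. The myeloid marker *Cd14* had 0.179 to 0.461 and 1.14 to 1.89 FPKM, *Cd4* had 0.106 to 0.345 and 0.0127 to 0.0648, and the 5 erythroid markers summed to at most 0.787 FPKM in any library. The part of these markers in the results below was not tested. In bulk RNA, fewer cells of a type and less RNA per cell cannot be told apart.

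Promoter sequence is one feature that the choice by name did not use. Nuclear respiratory genes are classic targets of NRF1, of the ETS factor GABPA (NRF2) and of YY1, and windows of 300 bases around the start of transcription (250 before it and 50 after, RefSeq, GRCm38.p6) were searched on both strands for letters that these factors prefer. A window was given for 66 of the 84 genes. The 8-base NRF1 core GCATGCGC was in the windows of 10 of these 66 genes (15.2%), against 824 of 27025 genes in the whole table (3.05%). The GABPA core CCGGAAG was present in 16 (24.2%), against 9.93% of all genes, and the YY1 core AAGATGGC in 9 (13.6%), against 3.19%. At least one of the 3 cores was found in 29 of the 66 windows' genes and none in 37. These are matches of letters and do not show that a factor binds. The comparison set was every gene with a window, and was not restricted to genes expressed in Teff.

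The full NRF1 motif, 10 bases that add GC in front of the core and read the same on both strands, was held by 5 members from complexes I, III, IV and V. They are shown 5′ to 3′ on the strand of the gene, with the motif in capitals, since the motif recurs across these complexes.
Ndufa11 (complex I, chr17:56717687-56717726, + strand): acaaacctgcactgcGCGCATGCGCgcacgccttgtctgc
Uqcrc1 (complex III, chr9:108936668-108936697, + strand): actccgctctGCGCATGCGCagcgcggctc
Cox6a1 (complex IV, chr5:115349096-115349135, − strand): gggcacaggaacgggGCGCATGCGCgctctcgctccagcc
Atp5g2 (complex V, chr15:102671065-102671104, − strand): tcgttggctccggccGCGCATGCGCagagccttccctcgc
Atp5k (complex V, chr5:108434425-108434464, − strand): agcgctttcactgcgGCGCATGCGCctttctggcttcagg
The motif began 162 bases before the start in *Cox6a1*, 60 before it in *Ndufa11*, 50 in *Atp5k* and 42 in *Atp5g2*, and 30 bases after it in *Uqcrc1*. The share holding it was 7.58% of the 66 genes and 1.07% of all genes.

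The 8-base GABPA motif CCGGAAGT was also held by 5 members (7.58%, against 4.31% of all genes), in 4 of them as its reverse complement. They are shown because all 5 sit within 66 bases of the start, and *Cox8a* had the highest FPKM of the chain.
Cox8a (complex IV, chr19:7217599-7217638, − strand): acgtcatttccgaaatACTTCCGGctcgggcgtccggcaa
Atp5h (complex V, chr11:115419935-115419974, − strand): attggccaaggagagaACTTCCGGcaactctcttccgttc
Ndufs3 (complex I, chr2:90904702-90904741, − strand): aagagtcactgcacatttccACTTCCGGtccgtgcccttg
Uqcrh (complex III, chr4:116075058-116075097, − strand): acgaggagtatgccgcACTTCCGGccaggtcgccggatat
Uqcr11 (complex III, chr10:80406864-80406903, − strand): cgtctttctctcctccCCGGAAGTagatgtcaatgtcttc

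The full YY1 motif, 11 bases that add GGC after the core, was held by 4 members (6.06%, against 0.755% of all genes), all of them subunits of complex I and all with the motif 24 to 35 bases after the start. The 8-base core was in the windows of 7 of the 32 complex I and 2 of the 13 complex V genes with a window, and in 0 of the 3, 5 and 13 genes of complexes II, III and IV.
Ndufs4 (chr13:114388045-114388074, − strand): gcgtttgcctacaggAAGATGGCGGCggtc
Ndufs6 (chr13:73328433-73328462, − strand): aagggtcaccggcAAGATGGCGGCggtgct
Ndufs7 (chr10:80249464-80249493, + strand): gccgaggccAAGATGGCGGCgctggcgggt
Ndufa9 (chr6:126849095-126849124, − strand): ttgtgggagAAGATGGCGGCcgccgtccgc
The log2 fold changes (*Scd-1*-/- over WT) of these 4 genes were 0.29, -0.21, 0.08 and -0.01 in the order shown, and none reached an adjusted p under 0.05 by edgeR.

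The chain was well expressed in Teff. Of the 84 genes, 78 reached a mean FPKM of at least 1 over the 6 libraries (FPKM divides counts by a gene length and by the library total), and their median was 70.8 FPKM, against 7.25 over all 9627 genes that reached this level. In FPKM, over all 84 genes rather than the 78, complex IV held both the highest and the lowest levels. *Cox8a* led at 719 FPKM, followed within the complex by *Cox6b1* at 573 and *Cox6a1* at 440, each a small subunit around the catalytic core. *Cox4i1*, the general form of subunit 4, had 229 FPKM.

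Most of the muscle, lung, testis and hypoxia forms of these subunits were at or near 0. *Cox8b*, *Cox8c* and *Cox7b2* had no count in any library. *Cox4i2*, the form known from lung and low oxygen, had 8, 6 and 0 counts in WT and 4, 0 and 0 in *Scd-1*-/- libraries. *Cox6a2*, the heart and muscle form of subunit 6a, had 2 to 8 counts in WT and 5 to 10 in *Scd-1*-/- libraries. *Ndufa4l2*, which is induced in hypoxia, had no count in WT and 4, 0 and 5 counts in *Scd-1*-/- replicates 1, 2 and 3, a level near the floor at which no difference was detectable (edgeR adjusted p of 0.587 over 17192 genes). *Cox7a1* (7.63 FPKM), known from muscle, and *Cox6b2* (2.48 FPKM), known from testis, were the exceptions and lay far under their general forms *Cox7a2* (167 FPKM) and *Cox6b1*.

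Subunit c of the ATP synthase rotor is encoded by *Atp5g1*, *Atp5g2* and *Atp5g3*, which differ in their targeting peptides. *Atp5g3* held most of these transcripts, with 93.1 FPKM against 3.26 for *Atp5g1* and 2.10 for *Atp5g2*. CPM per kilobase of the longest coding transcript (GENCODE M21) gave the same order of the first against the others, at 377, 6.77 and 5.90. Complex V was otherwise led by *Atp5b* (352 FPKM) and *Atp5a1* (266 FPKM), the catalytic and noncatalytic large subunits of the F1 head, and its lowest tested gene was *Atp5s* at 1.56 FPKM.

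In complex I, *Ndufb9*, an accessory subunit, was highest at 200 FPKM and *Ndufb4* lowest among the tested genes at 1.61. The electron-accepting core subunits *Ndufv1*, which binds NADH and FMN, and *Ndufs1*, which carries iron-sulfur clusters, had 17.0 and 6.20 FPKM. In complex III the range of FPKM was narrow, from *Uqcr11* at 64.8 to *Uqcrfs1*, the Rieske iron-sulfur protein, at 143. In complex II, *Sdhd* and *Sdhc*, the membrane anchors, had 197 and 38.7 FPKM, and the flavoprotein *Sdha* and iron-sulfur subunit *Sdhb* had 52.2 and 94.2.

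Levels between genes depend on the length by which counts were divided. The length behind the deposited FPKM exceeded the longest coding transcript in 68 of the 81 members with a count, with a median ratio of 1.97 and a range of 0.751 to 7.81. Per kilobase of that transcript, *Sdhb* (215) and *Sdhd* (206 CPM per kilobase) were alike, *Sdha* had 99.0, and *Atp5b* became the highest member at 1270. The order within complexes turned too on this scale. *Ndufb7* (345) and *Ndufa7* (237 CPM per kilobase), the latter named after its values were seen, lay above *Ndufb9* (185), *Uqcrfs1* became the lowest gene of complex III at 143, and *Cox6a1* (917) and *Cox4i1* (798) lay above *Cox8a* (712). Some subunits without a tissue-specific form also had few reads, such as *Cox7c* with 35 to 79 counts and *Ndufb4* with 18 to 55. Of 50-base windows in the transcripts of *Cox7c* and *Ndufb4*, 27.9% and 37.0% occur in transcripts of other genes too, and how reads matching several genes were counted is not given in the sources used here.

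**Figure D1:**
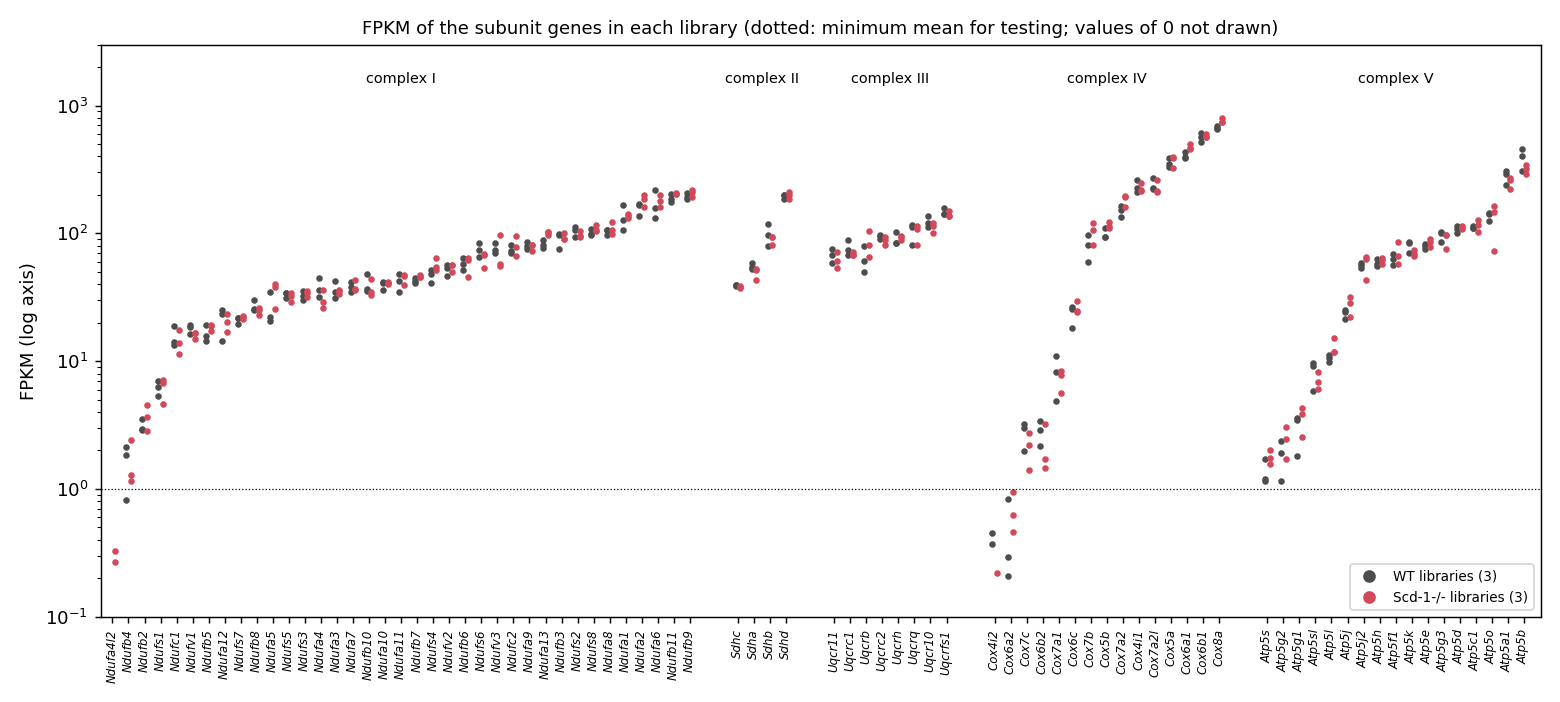
FPKM of each subunit gene with a count (log axis) in the 3 WT and 3 Scd-1-/- libraries, ordered by mean level within complexes I to V; the dotted line marks the minimum mean of 1 FPKM for testing. Most genes lie between 10 and 200 FPKM with both genotypes overlapping, Cox8a is highest at 719, and the tissue-specific forms Cox6a2, Cox4i2 and Ndufa4l2 lie under the minimum.

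The comparison of *Scd-1*-/- with WT Teff asks whether the loss of the desaturase changed the transcripts of the chain. None of the 78 tested subunits passed the study's thresholds (a 2-fold change, or 1 on the log2 scale, with an unadjusted p under 0.001), and none reached an adjusted p under 0.05 by edgeR's quasi-likelihood test. Over all genes these were passed by 0.738% and 0.114%. An unadjusted p under 0.05 was reached by 1 member, *Ndufa13*, against 10.1% of all genes, and 5.42% in its direction. DESeq2 on the same counts called 0 members at an adjusted p under 0.05 (2.76% of all genes) and 0 at the thresholds (1.67%). The thresholds were also passed by 0 members with the replicate number as a block (1.91% of all genes), and with replicates 2 and 3 alone, without the block (3.83%) or with it (3.61%).

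The estimates were small and close to 0. Between *Ndufa5* at 0.45 and *Cox6b2* at -0.38, the 78 log2 fold changes (*Scd-1*-/- over WT) had a median of 0.06, where all tested genes had 0.00, with 46 members above 0 (59.0%, against 49.9% of all genes). With 1 library left out, *Ndufa5* ran from 0.32 to 0.70 and *Cox6b2* from -0.81 to -0.17. The 95% interval lay within a 2-fold change in either direction for 72 of the 78 members, against 77.0% of all genes, and within a 1.5-fold change for 54, against 34.6%. Members are more abundant than most genes, and the median standard error was 0.147 for them and 0.210 for all genes. The sum of FPKM over the 78 members averaged 7784 ± 119 over WT libraries and 7993 ± 346 over *Scd-1*-/- libraries (± SD, 3 per group). The sum over all tested genes was also higher in *Scd-1*-/- libraries, at 378100 ± 8930 against 355400 ± 5490 in WT.

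**Figure D2:**
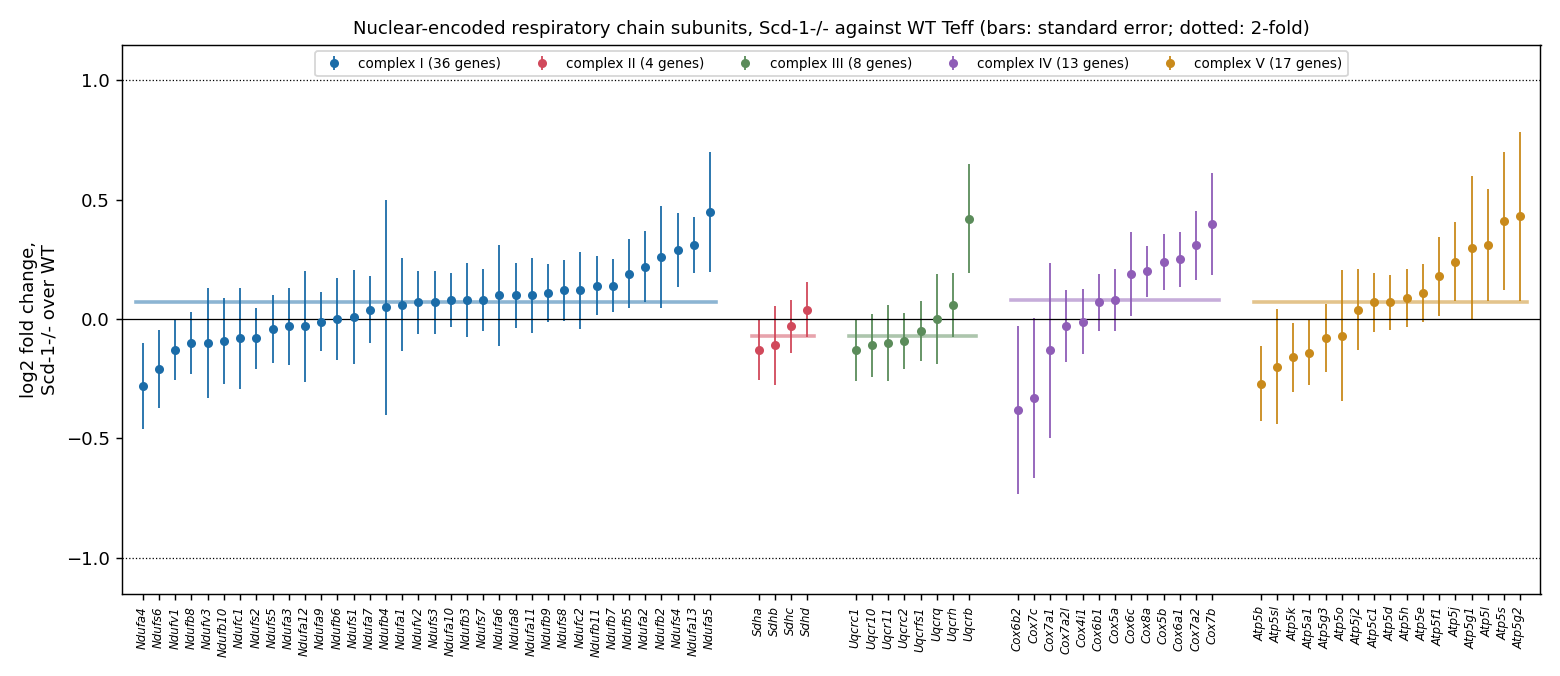
Log2 fold change of each tested subunit gene (Scd-1-/- over WT) with its standard error, ordered within complexes I to V; thick lines are the medians of the complexes and dotted lines mark a 2-fold change. All 78 points lie between -0.38 and 0.45, and the medians lie between -0.07 and 0.08.

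In complex I the median of the 36 tested genes was 0.07, with 23 above 0. In CPM scaled by TMM, all 3 *Scd-1*-/- libraries lay above all 3 WT libraries for 4 genes, *Ndufa13*, *Ndufs4*, *Ndufb7* and *Ndufa10*, the last of which was named after its values were seen. In all complexes together this held for 8 of the 78 members, and the opposite for 0, where 8.40% and 7.66% of all genes did so.

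*Ndufa13*, an accessory subunit also known as GRIM-19, had 102, 95.1 and 106 CPM in WT replicates 1 to 3 and 122, 127 and 128 in the *Scd-1*-/- replicates. The groups did not overlap, with an estimate of 0.31 ± 0.118 on the log2 scale (± standard error, also below) and an edgeR adjusted p of 0.434. *Ndufs4*, needed for the assembly of the NADH-oxidizing arm, had 75.3, 62.1 and 76.3 CPM in WT and 79.6, 83.3 and 99.0 in *Scd-1*-/- libraries, an estimate of 0.29 ± 0.154 with an edgeR adjusted p of 0.585. Its lowest *Scd-1*-/- library was close to its highest WT library. *Ndufb7*, an accessory subunit on the intermembrane side, had 199 to 215 CPM in WT and 222 to 232 in *Scd-1*-/- libraries, and a log2 fold change of 0.14.

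The largest estimate in the chain was that of *Ndufa5*, an accessory subunit of the matrix arm that is named here after its values were seen. It had 28.5, 29.7 and 45.6 CPM in WT and 35.2, 51.3 and 55.1 in *Scd-1*-/- libraries, so WT replicate 3 lay above *Scd-1*-/- replicate 1. Its log2 fold change was 0.45 with a 95% interval of -0.14 to 1.03. *Ndufa4* had the lowest estimate of the complex I names, with 83.7 to 115 CPM in WT and 70.6 to 97.6 in *Scd-1*-/- libraries and an estimate of -0.28 ± 0.182 (edgeR adjusted p of 0.680). The redox core genes differed little, with -0.13 for *Ndufv1* and 0.01 for *Ndufs1*, whose direction turned in 7 of the alternative settings.

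In complex II, 1 of the 4 genes was above 0 and the median was -0.07. *Sdha* had 302, 285 and 312 CPM in WT and 241, 292 and 290 in *Scd-1*-/- libraries, and only *Scd-1*-/- replicate 1 lay well under the WT range. *Sdhc* was the steadiest gene of the complex, at 147 to 155 CPM in WT and 146 to 151 in *Scd-1*-/- libraries. The log2 fold changes were -0.13, -0.11, -0.03 and 0.04 for *Sdha*, *Sdhb*, *Sdhc* and *Sdhd*, and the 95% intervals of all 4 lay within a 1.5-fold change in either direction.

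In complex III, 3 of the 8 genes were above 0 and the median was -0.07. *Uqcrc1*, a core protein of the matrix side, had 424, 540 and 441 CPM in WT and 422, 442 and 422 in *Scd-1*-/- libraries, a log2 fold change of -0.13, and *Uqcrfs1* had -0.05. *Uqcrb*, a small ubiquinone-binding subunit that is named here after its values were seen, was the exception in size. It had 67.9, 54.7 and 84.5 CPM in WT and 72.2, 88.9 and 116 in *Scd-1*-/- libraries, a log2 fold change of 0.42 with a 95% interval of -0.11 to 0.95. The groups overlapped, and 43.2% of the 50-base windows of its transcript are shared with other genes.

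In complex IV the median over 13 tested genes was 0.08, and the groups of 3 genes did not overlap. Leaving out WT replicate 1 gave a median of 0.18, *Scd-1*-/- replicate 1 gave 0.16, WT replicate 3 gave 0.13 and *Scd-1*-/- replicate 3 gave 0.04. *Cox6a1* had 477, 516 and 446 CPM in WT and 558, 539 and 608 in *Scd-1*-/- libraries, an estimate of 0.25 ± 0.117 with an edgeR adjusted p of 0.536. *Cox5b*, a zinc-binding subunit, had 241, 236 and 271 CPM in WT and 283, 290 and 312 in *Scd-1*-/- libraries, a log2 fold change of 0.24 (edgeR adjusted p of 0.557). *Cox8a* had 371, 356 and 366 CPM in WT and 445, 404 and 410 in *Scd-1*-/- libraries, with a log2 fold change of 0.20 (edgeR adjusted p of 0.586). For these 3 genes the highest WT library was thus under the lowest *Scd-1*-/- library, by 4.32% to 8.93% of the WT value.

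*Cox7b* and *Cox7a2*, small membrane subunits, had larger estimates with overlapping groups. *Cox7b* had 140, 101 and 160 CPM in WT and 141, 180 and 208 in *Scd-1*-/- libraries, a log2 fold change of 0.40. *Cox7a2* had 126, 101 and 111 CPM in WT and 124, 145 and 149 in *Scd-1*-/- libraries, a log2 fold change of 0.31. *Cox4i1* and *Cox6b1* were at -0.01 and 0.07, and *Cox7a2l* was at -0.03. The low estimates of *Cox6b2* (-0.38), *Cox7c* (-0.33) and *Cox7a1* (-0.13) rest on few reads, with standard errors of 0.352, 0.336 and 0.367.

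The sum of FPKM of the complex IV genes was 2876, 2770 and 2866 in WT and 3069, 3033 and 3148 in *Scd-1*-/- libraries, without overlap. The sum over all tested genes, however, was also higher in all *Scd-1*-/- libraries, at 372600 to 388400 against 352100 to 361700, so the sums of FPKM are not on one scale between the genotypes.

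In complex V the median over 17 genes was 0.07 (0.14 when *Scd-1*-/- replicate 1 was left out and 0.01 when replicate 3 was), with 11 above 0, while both large subunits of the F1 head had estimates below 0. *Atp5b* had 2140, 3140 and 2680 CPM in WT and 2030, 2360 and 2240 in *Scd-1*-/- libraries, an estimate of -0.27 ± 0.158 with an edgeR adjusted p of 0.641. WT replicate 1 lay below 2 of the 3 *Scd-1*-/- libraries. *Atp5a1* had 1280, 1620 and 1500 CPM in WT and 1180, 1410 and 1400 in *Scd-1*-/- libraries, a log2 fold change of -0.14.

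*Atp5l*, subunit g of the membrane part, was the single gene of complex V without overlap, with 5.15 to 5.52 CPM in WT and 5.95 to 7.85 in *Scd-1*-/- libraries and an estimate of 0.31 ± 0.234 (edgeR adjusted p of 0.739). It rests on 76 to 123 counts, and 68.5% of its 50-base windows occur in other genes. For subunit c, the log2 fold changes were 0.30 for *Atp5g1*, 0.43 for *Atp5g2* and -0.08 for *Atp5g3*. With 1 library left out, *Atp5g1* ran from 0.06 to 0.49, *Atp5g2* from 0.19 to 0.65 and *Atp5g3* from -0.14 to 0.03. *Atp5s* was at 0.41, with 1.74 to 2.45 CPM in WT and 2.34 to 2.97 in *Scd-1*-/- libraries. *Atp5o*, the stalk subunit that confers oligomycin sensitivity, is named after its values were seen, because 1 library decided its value. It had 396, 444 and 428 CPM in WT and 230, 460 and 520 in *Scd-1*-/- libraries, and its log2 fold change of -0.07 turned to 0.21 without *Scd-1*-/- replicate 1.

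**Figure D3:**
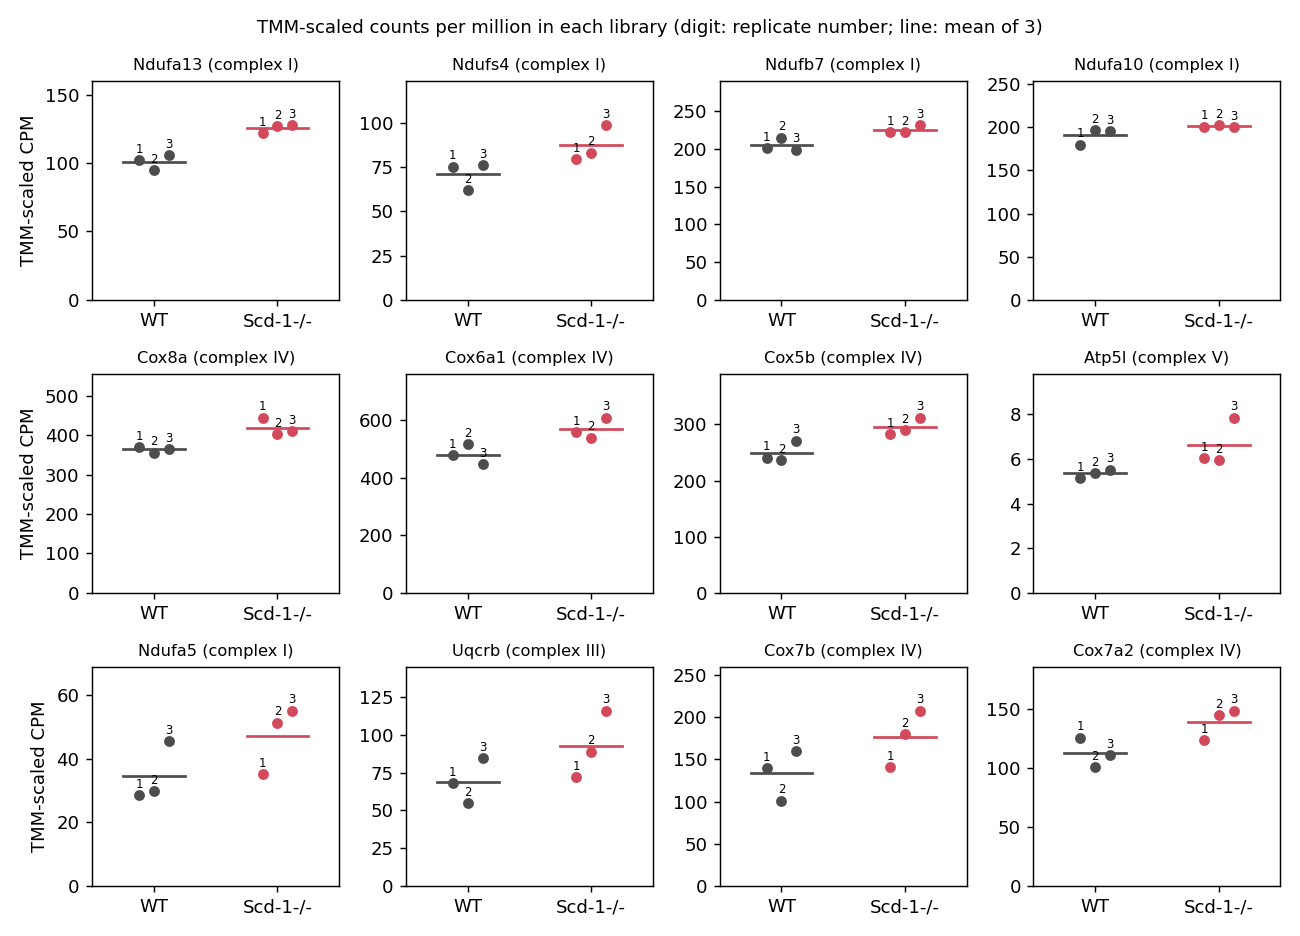
TMM-scaled CPM in each library for 12 subunit genes, on axes that start at 0; digits are replicate numbers and lines are means of 3 libraries. In the 8 genes of the upper 2 rows every Scd-1-/- library lies above every WT library by a small margin, and in the 4 genes of the lowest row the groups overlap.

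The libraries carry replicate numbers, and same-numbered libraries deviated together, most clearly those of replicate 1. With the number as a block, 10 members had an unadjusted p under 0.05, against 22.4% of all genes. Of these, 9 were higher in *Scd-1*-/- Teff (11.3% of all genes) and 1 was lower (11.2%), and 0 members had an adjusted p under 0.05, against 4.70% of all genes. The 3 pairs of same-numbered libraries did not give the same median, which was -0.05 for replicate 1, 0.04 for replicate 2 and 0.12 for replicate 3. Over all genes these medians were -0.01, 0.00 and 0.00. A total of 16 members were higher in the *Scd-1*-/- library of every pair and 13 were lower, or 20.5% and 16.7%, against 22.1% and 22.9% of all genes.

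With replicates 2 and 3 alone, *Cox7a2* reached an edgeR adjusted p of 0.0290, with a log2 fold change of 0.47, and was the single member to do so, against 12.6% of all genes. With these libraries and the block, a setting chosen after the data were seen, 4 members did so, against 15.2% of all genes. These were *Uqcrb* (0.58), *Cox7b* (0.60), *Cox7a2* (0.48) and *Atp5j* (0.41), a stalk subunit. All 4 were higher in *Scd-1*-/- Teff. The medians of complexes I to V with replicates 2 and 3 alone were 0.08, -0.03, -0.02, 0.14 and 0.17, and that of all members was 0.08.

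Replicate 1 touched the chain unevenly. In 20 of the 78 members both replicate 1 libraries lay below the other 4, and in 5 they lay above, where these patterns held for 21.1% and 23.4% of all genes. The low genes included 7 of the 17 of complex V, *Atp5a1*, *Atp5b* and *Atp5g3* among them, and 8 of complex I. The estimate of *Atp5b* was -0.40 without WT replicate 1, -0.21 without *Scd-1*-/- replicate 1 and -0.34 without both. It was -0.13 without WT replicate 2.

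Transcript length moved with the comparison across all genes. The median log2 fold change was 0.05 for 741 genes with a median coding transcript under 700 bases and -0.06 for 2485 genes of 3000 bases or more. All genes of 700 to under 1500 bases had 0.02, and those of 1500 to under 3000 bases had 0.01. The 40 members under 700 bases had a median of 0.06, the 32 of 700 to under 1500 bases had 0.07, and the 6 of 1500 to under 3000 bases had -0.13. Spearman's rho of log2 fold change with this length was -0.12 over all genes and 0.05 over members. The part of length in the members' values was not tested.

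Some members have stretches in common with copies elsewhere. In 12 of the 84, at least 20% of the 50-base windows of the transcript occur in another gene's transcripts. *Gm10250*, which shares 46.0% of the windows of *Atp5h* (subunit d of the ATP synthase stalk), had 2578 to 2860 counts in WT and 2612 to 3152 in *Scd-1*-/- libraries. *Gm11273*, which shares 25.9% of the windows of *Cox5b*, had 1936 to 2252 and 2173 to 2737, beside 3338 to 3975 and 4096 to 4879 for *Cox5b* itself. Since it is not given how reads matching several genes were counted, the levels of these members are uncertain.

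The other nuclear genes of the pathway were taken from lists of assembly factors, carriers and regulators. None of the 14 complex I, 3 complex II, 4 complex III, 21 complex IV and 4 complex V assembly factors tested had an adjusted p under 0.05, with medians of -0.07, 0.19, 0.08, 0.02 and 0.00. The 4 subunits that the names miss, among them *Cyc1*, had a median of 0.07 with 2 of the 4 above 0. Cytochrome c and the quinone pool (13 genes, median 0.02), the 3 tested supercomplex and hypoxia adaptors (-0.03), the TCA cycle (13 genes, -0.08) and the regulators of nuclear mitochondrial genes (12 tested, 0.04) also held 0 genes with an adjusted p under 0.05 by edgeR, with or without the block. Mitochondrial ribosomal proteins were above 0 in 58 of 77 genes with a median of 0.10, and cytosolic ribosomal proteins in 52 of 75 with a median of 0.06, and in both 0 genes passed with or without the block. With replicates 2 and 3 alone, an adjusted p under 0.05 was reached in these lists by 9 genes, against 12.6% of all genes, which are named after their values were seen. Higher in *Scd-1*-/- Teff were the complex IV assembly factors *Cox20* (0.93) and *Cmc1* (0.70), *Usmg5* (0.52), a small ATP synthase subunit, *Sucla2* (0.66) of the TCA cycle, and the mitochondrial ribosomal proteins *Mrpl42* (0.66), *Mrps31* (0.65), *Mrps18c* (0.53) and *Mrpl33* (0.44). Lower was the regulator *Pprc1* (-0.81), a coactivator of the PGC-1 family.

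The subunits encoded in mitochondrial DNA had larger estimates than the nuclear ones, a difference that was not itself tested. Of 13, 12 had an estimate above 0, with a median log2 fold change of 0.75 (0.86 with replicates 2 and 3 alone). Of the 13, 11 had an unadjusted p under 0.05, all higher in *Scd-1*-/- Teff, against 10.1% of all genes, and 5.42% in that direction. An adjusted p under 0.05 was reached by 0 of them without the block and by 8 with it, all higher in *Scd-1*-/- Teff, against 4.70% of all genes. With replicates 2 and 3 alone, 10 reached it higher and 1, *mt-Nd6*, lower, at -0.74, against 12.6% of all genes in either direction. The sources name both total RNA and poly(A) RNA for these libraries, which differ in how they capture mitochondrial transcripts. Relative to the mean of the WT libraries, their median level was 0.50, 0.66 and 1.09 on the log2 scale in *Scd-1*-/- replicates 1, 2 and 3, whereas the nuclear-encoded subunits had 0.02, 0.02 and 0.15. *mt-Nd4*, a proton-pumping subunit of complex I, averaged 259 ± 40.8 FPKM over WT libraries and 538 ± 134 over *Scd-1*-/- libraries (± SD, 3 per group). The estimate for *mt-Nd4* was 1.08, with an edgeR adjusted p of 0.00427 under the block and 0.0988 otherwise, and with an unadjusted p of 0.000767 it was the 1 mitochondrially encoded gene past the study's thresholds. *mt-Atp6*, the proton channel of the ATP synthase, had 310 ± 21.9 and 547 ± 117 FPKM, and its log2 fold change was 0.84, with an edgeR adjusted p of 0.0135 under the block and 0.131 otherwise. The nuclear-encoded genes of complex I and of complex V each had a median of 0.07. Named after their values were seen, *mt-Nd6* had a log2 fold change of -0.47, and *mt-Nd4l* had 0.222, 0 and 207 FPKM in WT and 239, 0 and 359 in *Scd-1*-/- replicates 1, 2 and 3. The estimate of *mt-Nd4l*, 1.59 with a standard error of 2.02, is among the 12 above 0.

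**Figure D4:**
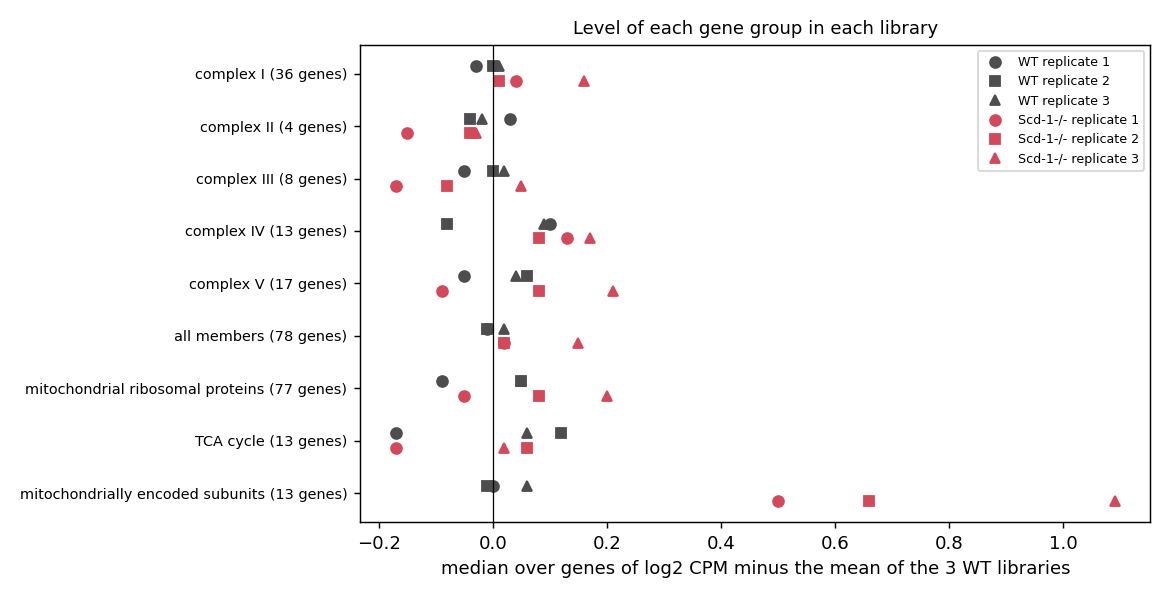
Median over the tested genes of a group of the log2 CPM relative to the mean of the 3 WT libraries, for complexes I to V, all nuclear-encoded members and 3 related groups; each symbol is 1 library. The nuclear-encoded members lie between -0.01 and 0.15 in the 6 libraries, and the mitochondrially encoded subunits lie at 0.50, 0.66 and 1.09 in the Scd-1-/- libraries.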

How the data were processed

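Each of the 6 libraries had 1 table. The authors aligned reads with HISAT2 and quantified genes with StringTie 1.3.0 (GRCm38, per the submitters' processing notes), and deposited raw counts per gene, as whole numbers, and FPKM computed by the authors from those counts, a gene length and the library total. The methods name a stranded total RNA kit, the labels Trizol, poly(A) RNA and another kit. Whether counting used strand, and how reads matching several genes were counted, is not given in the sources used here.

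Counts of 9627 genes, those averaging 1 FPKM or more over the libraries, were fitted with edgeR 4.0.16 (R 4.3.3), TMM scaling and the quasi-likelihood test, no replicate block, and Benjamini-Hochberg adjustment over all of them. The standard error was the log2 fold change divided by the square root of F. The 95% intervals used the total degrees of freedom of the quasi-likelihood test, residual and prior together. Genes under the minimum came from a fit to 17192 genes. Alternatives used DESeq2 1.42.0 and limma 3.58.1 on log2 FPKM plus 1 or 0.1. Deviations from the group means correlated between same-numbered libraries (r of 0.595, 0.306 and 0.470 across genes), so the numbers were taken to pair them, although WT replicate 3 correlated with *Scd-1*-/- replicate 2 at 0.38. Gene positions and transcripts were those of GENCODE M21, near-identical transcripts had at least 95% identity over 50% of the length, and the fits were tested on simulated counts. The members, the lists and the tests were chosen with earlier results of these data known. Named members were those past a threshold, those of largest change without overlap in each complex (up to 3 in each direction), the highest and lowest of each complex, the *Sdh* genes, isoform families, catalytic core genes and members under the minimum. In each related list up to 2 genes in each direction were named. Genes named outside this were chosen after their values were seen.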

Additional observations from a re-analysis of the deposited data

How the results depend on the processing

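No nuclear-encoded subunit passed the study's thresholds in any of the alternatives run: FPKM minima of 0 and 5, median-ratio, upper quartile and unscaled library totals, DESeq2, limma on FPKM, the replicate block, fits leaving out 1 library, and replicates 2 and 3 alone. Those with an adjusted p under 0.05 numbered 1 with replicates 2 and 3 alone and 4 with these libraries and the block, the latter chosen after the data were seen, and 0 in the rest. With all 6 libraries the block changed no call of a member. Members higher without overlap numbered 5 with library totals and in both limma fits (FPKM plus 1 or plus 0.1), 31 with replicates 2 and 3 alone with or without the block, and 8 to 23 with 1 library left out, most without *Scd-1*-/- replicate 1. Members lower without overlap numbered 1 with no minimum, with library totals and in both limma fits, 10 with replicates 2 and 3 alone with or without the block, and 0 to 6 with 1 library left out, most without WT replicate 1. With library totals and in both limma fits, 7.67% of all genes were higher and 8.32% lower without overlap (6.41% and 1.28% of members). With no minimum these shares were 6.57% and 6.91% of all genes (8.64% and 1.23% of members). Fewer libraries per group make a lack of overlap more frequent: over all genes, 29.8% were higher and 29.9% lower without overlap with replicates 2 and 3 alone (39.7% and 12.8% of members), and 10.2% to 19.6% and 9.19% to 19.0% with 1 library left out (10.3% to 29.5% and 0% to 7.69% of members). Over all genes, those past the thresholds numbered 71, against 148 with no minimum, 42 with a minimum of 5, 161 by DESeq2, 184 with the block, 369 with replicates 2 and 3 alone (348 with the block) and 25 to 163 with 1 library left out. Those with an adjusted p under 0.05 numbered 11, against 84 with no minimum, 266 by DESeq2, 17 by limma on FPKM plus 1, 452 with the block, 1213 with replicates 2 and 3 alone (1468 with the block) and 2 to 182 with 1 library left out. In the fits without 1 library the high ends came without *Scd-1*-/- replicate 1, the low ends without WT replicate 2 or 3 and without *Scd-1*-/- replicate 3. The median of all members ran from 0.02 to 0.08 over these fits.

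The median of complex IV was 0.18 with a minimum of 5 FPKM, which leaves out *Cox6b2* and *Cox7c*, and 0.04 to 0.18 with 1 library left out (0.18 without WT replicate 1, 0.16 without *Scd-1*-/- replicate 1). That of complex II was -0.09 to -0.01, the latter without WT replicate 2, that of complex I 0.03 to 0.09, that of complex III -0.11 to -0.02 and that of complex V 0.01 to 0.14. Several genes near 0 changed sign. *Ndufs1* came to -0.01 with library totals, -0.02 and -0.03 by limma on FPKM plus 1 and plus 0.1, just under 0.00 with the block, and -0.11 to 0.18 without 1 library. *Cox4i1* came to 0.00 with upper quartile scaling and -0.10 to 0.08 without 1 library. With replicates 2 and 3 alone, without and with the block, *Ndufb4* came to -0.06 and -0.10, *Cox7a1* to 0.13 in both, and *Atp5o* to 0.17 and 0.16. Without 1 library, *Ndufb4* ran from -0.37 to 0.31, *Cox7a1* from -0.38 to 0.18, *Atp5o* from -0.29 to 0.21, *Cox7a2l* from -0.15 to 0.08, *Atp5g3* from -0.14 to 0.03, *Sdhb* from -0.23 to 0.05, *Uqcrfs1* from -0.10 to 0.03, and *Sdhd* from 0.00 to 0.09. The cause was not tested. At 18 to 55 counts for *Ndufb4* and 35 to 79 for *Cox7c*, depth limits what could be detected. The members' median was 0.06 for those with at least 20 FPKM, 0.05 without near-identical transcripts and 0.05 for those with under 20% of windows in other genes, a limit chosen after the data were seen.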
